A study of Mus musculus with 8 samples.

Results

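Of the 24346 genes that the RNA-seq files list, 10 encode the transcription factors most closely tied to epithelial identity: the grainyhead-like factors Grhl1, Grhl2 and Grhl3, the OVO-like factors Ovol1 and Ovol2, the epithelial ETS factors Elf3, Elf5, Ehf and Spdef, and the Kruppel-like factor Klf5. They were taken by symbol, and each has 1 entry per library. RNA came from wild-type BALB/c mice, 12-week-old males, whose gonadal adipose tissue gave primary adipose-derived stem cells (ADSCs). Cells in conventional culture (2D) were sequenced from mice 2, 3, 4 and 5, and cells grown as organoids in Matrigel (3D) from mice 1, 4, 5 and 7, with 1 library per mouse and culture. Several media with Wnt3a- and R-Spondin1-conditioned medium were tried for 3D, and neither the medium nor the passage of the sequenced cultures is given in the labels or methods, so effects of matrix, medium and time cannot be told apart. The methods describe filtration through a mesh before plating and no sorting, and all 8 libraries are labelled as mesenchymal stem cells.

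Grainyhead-like proteins bind DNA of epithelial genes and open chromatin there, and Grhl2 is known to maintain the expression of E-cadherin and claudins. OVO-like zinc finger proteins are repressors known to hold back Zeb1 and other drivers of the epithelial-mesenchymal transition (EMT). Elf3, Elf5, Ehf and Spdef form the epithelium-restricted branch of the ETS family, and Klf5 is known for proliferating epithelia such as the intestinal crypt. 

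The genes lie on 8 chromosomes of mm10 (GRCm38), the build named in the labels. Ehf (chr2:103263433-103303278, minus strand) and Elf5 (chr2:103411688-103450989, plus strand) are neighbours on chromosome 2, with 108409 bp and 0 protein-coding genes of GENCODE M21 between them. Ovol2 (chr2:144305175-144332146) is on the same chromosome. Grhl1 (chr12:24572283-24617391), Grhl2 (chr15:37233036-37363569) and Grhl3 (chr4:135541888-135573630) each have 16 exons in their longest coding transcript, Ovol1 (chr19:5549136-5560646), Ovol2 and Klf5 (chr14:99298691-99315036) have 4, Elf3 (chr1:135253575-135258568) has 9 and Spdef (chr17:27714352-27728955) has 6.

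Promoter sequences are shown for 4 genes that differed in their 3D level, namely Elf3 and Grhl1, which rose, and Grhl3 and Spdef, which did not pass the test. RefSeq promoter windows (GRCm38.p6) matched 6 of the 10 genes with 8 windows. Each line runs 5′ to 3′ on the strand of the gene and ends before the first base that GENCODE M21 counts as an exon of that gene. Capitals mark motifs, of which AACCGGTT (grainyhead), CCGTTA (OVO), CCGGAA and AGGAAG (ETS), CAGGTG (an E-box of the type that Snail and Zeb factors recognise) and CCACCC (KLF) were searched on both strands. The stretches are chr1:135258569-135258722 (minus) for Elf3, chr12:24572037-24572282 (plus) for Grhl1, chr4:135573633-135573882 (minus) for Grhl3 and chr17:27728956-27729201 (minus) for Spdef.
Elf3: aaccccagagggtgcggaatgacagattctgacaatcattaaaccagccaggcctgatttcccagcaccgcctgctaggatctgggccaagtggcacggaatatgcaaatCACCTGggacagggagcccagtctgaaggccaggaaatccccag
Grhl1: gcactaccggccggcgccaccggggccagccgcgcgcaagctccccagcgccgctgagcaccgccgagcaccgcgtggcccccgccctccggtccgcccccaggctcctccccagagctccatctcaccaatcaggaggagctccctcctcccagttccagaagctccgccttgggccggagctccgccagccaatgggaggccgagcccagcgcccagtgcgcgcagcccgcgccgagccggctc
Grhl3: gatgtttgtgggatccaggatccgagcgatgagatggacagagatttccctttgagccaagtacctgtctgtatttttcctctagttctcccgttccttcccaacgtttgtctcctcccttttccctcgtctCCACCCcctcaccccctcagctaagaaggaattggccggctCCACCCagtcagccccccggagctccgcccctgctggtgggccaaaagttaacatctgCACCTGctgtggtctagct
Spdef: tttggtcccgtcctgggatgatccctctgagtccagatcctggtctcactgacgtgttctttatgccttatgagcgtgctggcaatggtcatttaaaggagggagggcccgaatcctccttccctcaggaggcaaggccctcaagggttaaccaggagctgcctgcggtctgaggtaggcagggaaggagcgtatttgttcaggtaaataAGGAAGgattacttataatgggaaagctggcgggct

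The Elf3 stretch held 1 E-box, seen here as its reverse complement CACCTG. The Grhl1 stretch held none of the 6 motifs but 27 CG dinucleotides in its 246 bases, against a median of 6 in all 32851 windows of 250 bases. A second Grhl1 window, not printed here, held AGGAAG and CCACCC and 0 CG dinucleotides. In the Grhl3 stretch lay 1 E-box and 2 KLF motifs, and in the Spdef stretch 1 ETS motif of the form AGGAAG. Over the full windows of 250 bases before the start, the E-box stood in 3 of the 8 windows (Elf3, Grhl3 and the first of Elf5, which held 3 copies) and in 17.2% of all windows. CCACCC stood in 5 of the 8 windows and 28.1% of all, AGGAAG in 2 and 29.5%, and AACCGGTT, CCGTTA and CCGGAA in 0, against 0.116%, 2.18% and 12% of all windows. These matches describe letters and no binding was measured.

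The files hold no read totals. Judged by the smallest steps in the low values, a 2D library held 16.46 M to 17.34 M fragments and a 3D library 14.56 M to 15.56 M. Between 69.8% and 82.1% of the low values used lay within 0.15 of a whole number of fragments. Each depth was chosen for the best match of these same values to whole numbers, so this share is no independent check of it. Values per library and group means below are FPKM as deposited (fragments per kilobase of transcript, scaled to sequencing depth). Fitted differences are 3D minus 2D on log2(FPKM + 1) after quantile normalization, from limma with an adjusted p over 18862 genes, and they understate the change of low genes. A value worth no more than 3 fragments on the longest coding transcript is called at the floor, which covers counting error only.

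In 3D cultures 7 of the 10 factors rose: Ehf, Elf3, Grhl2, Klf5, Grhl1, Ovol1 and Ovol2. None fell, and Grhl3, Elf5 and Spdef did not pass the test. Of all genes tested, 21.2% were called higher and 20.3% lower, 41.5% in either direction. The median fitted difference of the 10 was 1.80, beside 0.00 over all genes. For the same 7 genes, the lowest 3D library lay above the highest 2D library, as it did in 23.6% of all genes, while the reverse held for 0 of the 10 and for 21.8% of all genes. Their summed level was between 1.72 and 3.08 FPKM in the 2D libraries and between 207 and 303 FPKM in the 3D libraries. When the mouse was added as a block, only mice 4 and 5 carried the comparison, with 1 residual degree of freedom. Then 0 of the 10 passed (limma adjusted p of 0.111 or higher), as did 0 of all 18862 genes. That count of 0 is therefore not a result about the factors. Of the 10, 7 had an unadjusted limma p below 0.05, all higher in 3D, beside 15.0% of all genes. In bulk RNA, more cells of a type and more RNA per cell cannot be told apart.

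**Figure D1:**
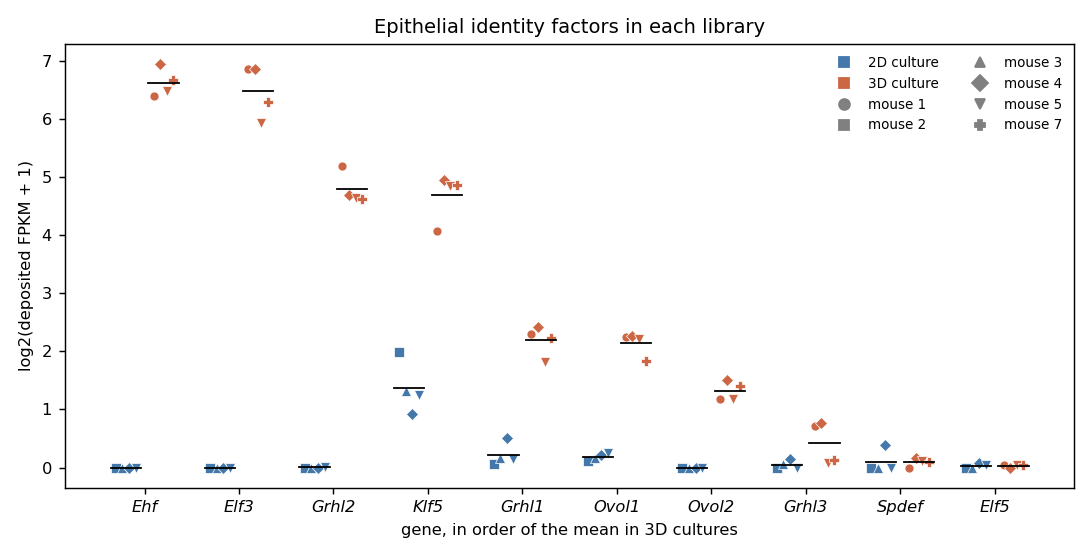
Deposited FPKM of the 10 factors in every library, as log2(FPKM + 1) on the vertical axis, with genes ordered by their 3D mean; each point is a library, colours mark the culture, symbols the mouse, and black lines the mean of 4 libraries on this scale. For Ehf, Elf3, Grhl2, Klf5, Grhl1, Ovol1 and Ovol2 every 3D point lies above every 2D point, and Grhl3, Spdef and Elf5 overlap.

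Grhl2, the grainyhead-like factor most linked to junction genes, was at 0 FPKM in the 2D cultures of mice 2, 3 and 4 and at 0.0121 in that of mouse 5, about 1 fragment. In the 3D cultures of mice 1, 4, 5 and 7 it stood at 35.7, 24.9, 24.0 and 23.7 FPKM. Every 2D library was thus at the floor, and mouse 1 was the highest of the 3D libraries. The mean of 27.1 ± 5.74 FPKM (SD, n = 4) in 3D was at least 735-fold higher than the floor, or at least 658-fold without mouse 1. Its fitted difference was 4.89 (standard error 0.17, limma's adjusted p = 9.8e-07). A heat map in the study, though not its text, displays Grhl2 among genes of epithelial cell development, so its direction is no independent evidence.

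Grhl1, known in epidermis for control of desmosomal cadherins, was measured at 0.0395, 0.119, 0.418 and 0.106 FPKM in the 2D cultures of mice 2, 3, 4 and 5. The 3D cultures of mice 1, 4, 5 and 7 had 3.9, 4.35, 2.53 and 3.71 FPKM. The 2D library of mouse 4 was the highest of its group and still far under the lowest 3D library. The mean rose from 0.171 ± 0.169 to 3.62 ± 0.778 FPKM (SD, n = 4), a fitted difference of 1.82 (standard error 0.16, limma's adjusted p = 1.1e-04).

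Grhl3, a factor of epidermal barrier formation and neural tube closure, divided the 3D libraries. Mice 1 and 4 had 0.635 and 0.695 FPKM, mice 5 and 7 only 0.0510 and 0.0948 FPKM. The range was 13.6-fold, counted from mouse 5, which was at the floor with about 2 fragments. In 2D it was at 0, 0.0433, 0.106 and 0 FPKM in mice 2, 3, 4 and 5, so the culture types overlapped. The fitted difference was 0.30, with a 95% interval from -0.01 to 0.60 and a limma adjusted p of 0.107. Without the 3D library of mouse 5 it was 0.38 with an adjusted p of 0.0443. That adjusted p ranged from 0.0443 to 0.214 over the 14 settings without a block. Even the highest library held only about 30 fragments of this gene.

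Within the grainyhead-like family, Grhl2 made up between 83.2% and 90.3% of the summed FPKM of Grhl1, Grhl2 and Grhl3 in each 3D library. In 2D the sum itself was no higher than 0.524 FPKM. The related CP2 branch of the superfamily behaved unevenly. Tfcp2l1, known from kidney and salivary duct epithelium and from pluripotent cells, rose from 0.218 ± 0.313 to 36.2 ± 28.2 FPKM (SD, n = 4), a fitted difference of 4.63 (standard error 0.73, limma's adjusted p = 0.00174), and its 3D libraries ranged from 6.79 to 69.5 FPKM. Tfcp2 and Ubp1, which are broadly expressed, had fitted differences of 0.23 and 0.16 with limma adjusted p-values of 0.238 and 0.271. In deposited FPKM, Tfcp2 was still higher in every 3D library (5.37 to 7.49) than in every 2D library (3.63 to 4.74), while Ubp1 overlapped.

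Ovol1 and Ovol2 both rose. Ovol1, known for epidermal and hair follicle differentiation, was at 0.0848, 0.124, 0.162 and 0.193 FPKM in the 2D cultures of mice 2, 3, 4 and 5, between 4 and 9 fragments each. In 3D it stood at 3.74, 3.80, 3.65 and 2.58 FPKM in mice 1, 4, 5 and 7, with mouse 7 below the other 3D libraries. The mean went from 0.141 ± 0.0468 to 3.44 ± 0.578 FPKM (SD, n = 4), a fitted difference of 1.78 (standard error 0.12, limma's adjusted p = 2.3e-05).

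Ovol2, the OVO-like factor best known for restraining EMT, was listed at 0 in all 4 2D libraries. The 3D libraries of mice 1, 4, 5 and 7 held 1.25, 1.83, 1.26 and 1.65 FPKM, which is between 28 and 44 fragments. The mean of 1.497 ± 0.288 FPKM (SD, n = 4) was at least 12.7-fold higher than the floor, and the fitted difference was 1.18 (standard error 0.11, limma's adjusted p = 1.4e-04). Ovol1 exceeded Ovol2 in each 3D library, by 1.56-fold to 2.98-fold. Ovol3 overlapped between the culture types and had a limma adjusted p of 0.0625, with at most 0.218 FPKM in any library.

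The ETS factors fell into 2 kinds, with Ehf and Elf3 among the most abundant of the 10 in 3D and Elf5 and Spdef near the limit of detection in both cultures. Ehf, an ETS factor of bronchial, prostate and other glandular epithelia, was listed at 0 in all 4 2D libraries. Its 3D values were 83.1, 122, 87.8 and 101 FPKM for mice 1, 4, 5 and 7. The 3D mean of 98.5 ± 17.4 FPKM (SD, n = 4) was at least 2414-fold above the floor and higher than the 3D mean of 96.9% of all genes tested. Ehf had the largest fitted difference of the 10, 6.95 (standard error 0.13, limma's adjusted p = 4.8e-08), which ranked 30 among the rises of all genes.

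Elf3, known for intestinal and airway epithelial differentiation and for induction by inflammatory signals, was likewise listed at 0 in every 2D library. In 3D, mice 1 and 4 had 114 and 116 FPKM, while mice 5 and 7 had 60.0 and 77.4 FPKM. Mice 1 and 4 were therefore the higher pair for Elf3, as they were for Grhl3. The mean of 91.9 ± 27.7 FPKM (SD, n = 4) was at least 1056-fold above the floor, with a fitted difference of 6.79 (standard error 0.22, limma's adjusted p = 6.8e-07). Elf3 was above Ehf only in mouse 1, with a ratio of 1.38, and the ratio was 0.948, 0.684 and 0.767 in mice 4, 5 and 7.

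Elf5, the ETS factor of mammary alveolar cells and trophoblast and the neighbour of Ehf on chromosome 2, did not follow Ehf. Its values were 0, 0, 0.0571 and 0.0302 FPKM in the 2D cultures of mice 2, 3, 4 and 5 and 0.0326, 0, 0.0343 and 0.0318 FPKM in the 3D cultures of mice 1, 4, 5 and 7. Each value above 0 corresponds to between 1 and 3 fragments, and all 8 libraries were at the floor. At this depth no difference could be detected. The fitted difference was -0.0025, with a 95% interval from -0.06 to 0.06 and a limma adjusted p of 0.943.

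Spdef, a factor of goblet and prostate secretory cells, was at 0 in the 2D cultures of mice 2, 3 and 5 and at 0.305 FPKM, about 10 fragments, in that of mouse 4. The 3D cultures of mice 1, 4, 5 and 7 had 0, 0.115, 0.0816 and 0.0757 FPKM. The highest of the 8 libraries was thus a 2D library, and the culture types overlapped. The fitted difference was -0.00022, with a 95% interval from -0.20 to 0.20 and a limma adjusted p of 0.998.

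Klf5 was the one factor with a clear level in 2D. It was at 2.96, 1.48, 0.903 and 1.38 FPKM in the 2D cultures of mice 2, 3, 4 and 5, from 53 to 166 fragments. In the 3D cultures of mice 4, 5 and 7 it stood at 30.0, 27.8 and 28.2 FPKM, and in that of mouse 1 at 15.8 FPKM. Mouse 1 was thus the lowest 3D library for Klf5 and the highest for Grhl2. The mean rose 15.1-fold, from 1.68 ± 0.889 to 25.4 ± 6.51 FPKM (SD, n = 4), a fitted difference of 3.28 (standard error 0.33, limma's adjusted p = 1.7e-04). Outside epithelium, Klf5 is known from vascular smooth muscle and from early adipocyte differentiation.

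**Figure D2:**
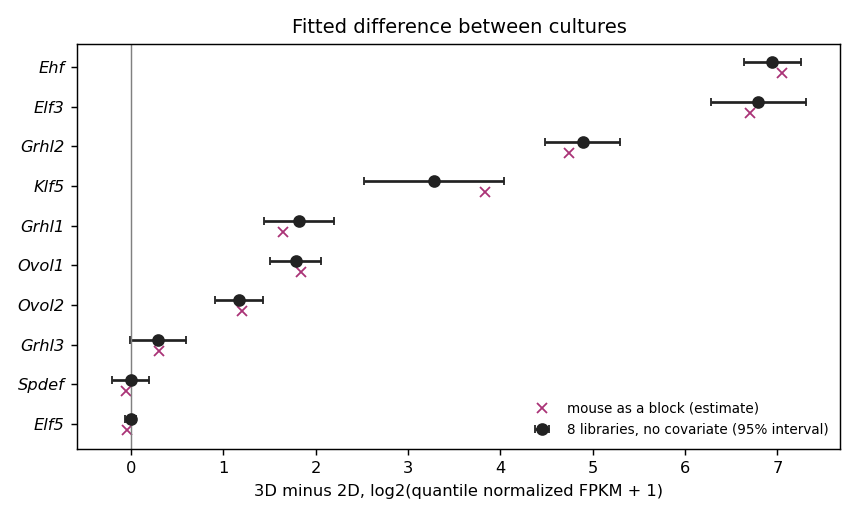
Fitted difference between 3D and 2D cultures for each factor on the horizontal axis, in log2(quantile normalized FPKM + 1); circles and bars are the limma estimate with its 95% interval from 8 libraries, and crosses the estimate with the mouse as a block. The intervals of 7 factors lie above 0, those of Grhl3, Spdef and Elf5 include 0, and the crosses of the 7 that passed also lie above 0.

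Mice 4 and 5 gave a library of each culture, so the difference can also be read within a mouse, on deposited log2(FPKM + 1). Ehf was higher in 3D by 6.94 in mouse 4 and 6.47 in mouse 5, and Elf3 by 6.87 and 5.93. For Grhl2 the within-mouse differences were 4.70 and 4.63, and for Klf5 4.03 and 3.60. Grhl1 differed by 1.92 and 1.67, Ovol1 by 2.05 and 1.96, and Ovol2 by 1.499 and 1.17. All 7 were higher in 3D in both mice. Spdef and Elf5 differed by -0.23 and -0.08 in mouse 4 and by 0.11 and 0.01 in mouse 5, and Grhl3 by 0.62 and 0.07. A pseudocount of 0.1 in place of 1 raised the fitted differences of the 7, to 10.26 for Ehf, 8.09 for Grhl2 and 3.75 for Ovol2, and all 7 passed with limma's adjusted p.

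Ranked by their mean FPKM in 3D, the order was Ehf, Elf3, Grhl2, Klf5, Grhl1, Ovol1, Ovol2, Grhl3, Spdef and Elf5. Ehf and Elf3 overlapped in range, as did Grhl2 with Klf5 and Grhl1 with Ovol1, so the order within these pairs is not larger than the spread between libraries. A gap without overlap separated Elf3 from Grhl2, Klf5 from Grhl1, Ovol1 from Ovol2, and Ovol2 from Grhl3. The last 3 genes overlapped with their neighbours. Elf3 and Ehf together therefore dominated the sum, with shares of 29.0% to 44.2% for Elf3 and 32.1% to 42.3% for Ehf. Grhl2 contributed 8.21% to 13.8% and Klf5 6.11% to 13.4%.

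**Figure D3:**
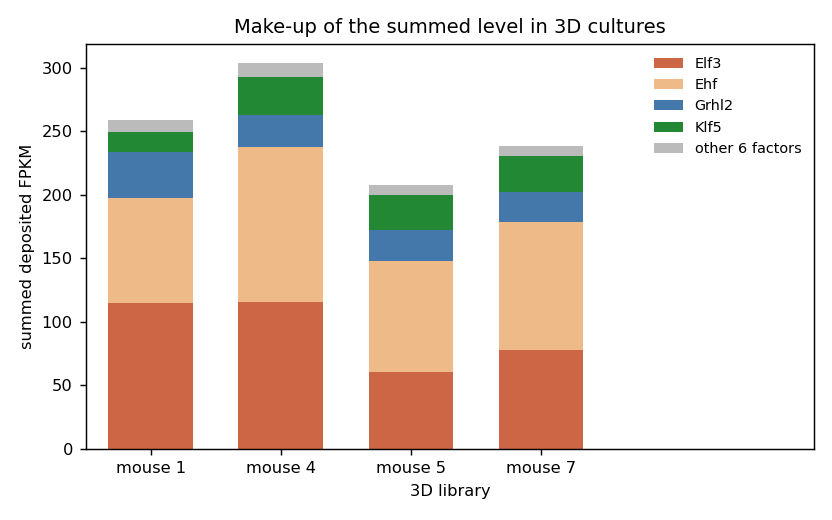
Summed deposited FPKM of the 10 factors in each 3D library (vertical axis), divided into Elf3, Ehf, Grhl2, Klf5 and the other 6 factors; each bar is 1 library. The sums run from 207 FPKM in mouse 5 to 303 FPKM in mouse 4, and the Elf3 part is larger than the Ehf part only in mouse 1.

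The genes most alike to Grhl2 in level over the 8 libraries, by the root mean square difference of normalized log2(FPKM + 1), were Grb7 (0.108), Syne4 (0.130) and Pkp3 (0.151). Grb7 is an adaptor of receptor tyrosine kinases, Syne4 a nuclear envelope protein and Pkp3 a desmosomal plaque protein. Those most alike to Ehf were Cldn7 (0.223), a tight junction protein, Kcnk1 (0.229), a potassium channel, and Rab25 (0.263), a small GTPase of apical recycling. This measure mostly reflects the level in each culture type.

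The rise of Ehf and Elf3 changed which ETS genes were most abundant. In 2D both stood last, at 0, among the 26 ETS genes listed, whereas in 3D Elf3 ranked 1 or 2 and Ehf between 1 and 3 in each library. Of the 22 other ETS genes, 19 were tested, of which 4 were higher and 8 lower in 3D by limma's adjusted p, with a median fitted difference of -0.03. These were 21.1% and 42.1% of the 19, beside 21.2% and 20.3% of all genes, so the share of rises was that of all genes. Etv1, a factor known downstream of growth factor signalling, had the largest fitted difference among those called higher, from 0.411 to 7.38 FPKM (fitted difference 2.24, standard error 0.39, limma's adjusted p = 0.00265), and Ets2 came next, from 23.2 to 42.8 FPKM. On the fitted log2(FPKM + 1) scale, the largest falls were those of Elf4, an ETS factor best known from lymphocytes, and of Ets1, known from lymphoid, endothelial and stromal cells. Elf4 fell from 16.4 to 1.84 FPKM (fitted difference -2.79, standard error 0.28, limma's adjusted p = 1.9e-04) and Ets1 from 18.0 to 2.90 FPKM. In deposited FPKM, Fli1 fell by a larger factor, from 4.09 to 0.0055 FPKM, and Elk3 by a larger amount, from 24.6 to 9.30 FPKM. The ETS sum as a whole, Elf3, Elf5, Ehf and Spdef left out, was between 205 and 285 FPKM in 2D and between 210 and 278 FPKM in 3D.

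Klf5 likewise moved up within its family, from rank 10 or 11 of 17 KLF genes in the 2D libraries to rank 3 in every 3D library. Its share of the summed KLF level was between 0.413% and 1.37% in 2D and between 10.1% and 17.7% in 3D. Of the 16 other KLF genes, 2 were higher and 8 lower by limma's adjusted p, with a median fitted difference of -0.49. These were 12.5% and 50% of the 16, beside 21.2% and 20.3% of all genes. Klf9, a hormone-responsive factor, fell from 32.8 to 4.03 FPKM and Klf2, a flow- and quiescence-related factor, from 8.01 to 0.923 FPKM, with fitted differences of -2.70 and -2.42. The 2 that were higher were Klf3, from 30.1 to 39.5 FPKM (fitted difference 0.72), and Klf1, which stayed at or below 1.29 FPKM. For Klf3 the culture types overlapped in deposited FPKM. The 2D library of mouse 3, at 44.8 FPKM, lay above the highest 3D library, at 41.5 FPKM. The other 2D libraries lay below every 3D library. The count of KLF genes called higher became 1 in 4 of the 8 fits that left out a library. These left out the 2D library of mouse 2 or 5, or the 3D library of mouse 4 or 5.

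**Figure D4:**
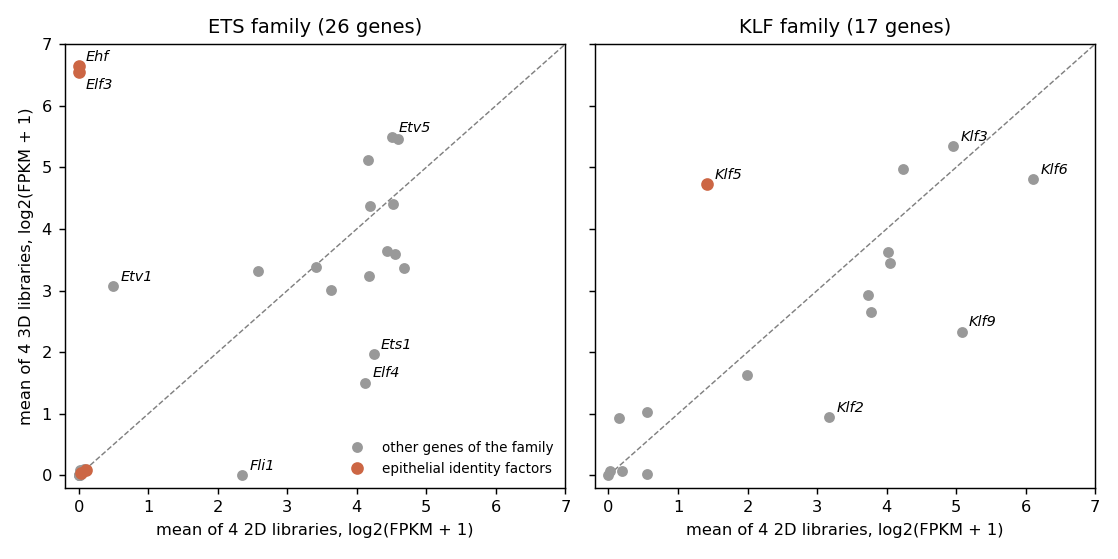
Mean of 4 2D libraries (horizontal) against mean of 4 3D libraries (vertical) for the 26 ETS and 17 KLF genes, as log2(FPKM + 1), with the dashed line at equal level; Elf3, Elf5, Ehf, Spdef and Klf5 are in orange and the other genes in grey. Ehf and Elf3 leave the lower left corner for the top, Klf5 lies above the line, and Elf4, Ets1, Fli1, Klf9 and Klf2 lie below it.

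Among 18 other transcription factors of epithelial lineages, 17 were tested, and 11 were higher and 0 lower in 3D by limma's adjusted p, with a median fitted difference of 1.56. These were 64.7% and 0% of the 17, beside 21.2% and 20.3% of all genes. Cdx1, Cdx2, Foxa2, Foxa3, Prdm1 and Trp63 did not pass. These 6 were named after their values were seen. Trp63, the basal epithelial factor, ranged from 0.290 to 106 FPKM between 3D libraries (limma's adjusted p = 0.136). In 2D it was at most 0.0262 FPKM, so every 3D library still lay above every 2D library.

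Of 24 epithelial genes known as targets or companions of these factors, 22 were higher in 3D and 0 lower, with a median fitted difference of 5.18. These were 91.7% and 0% of the 24, beside 21.2% and 20.3% of all genes. Epcam, an epithelial adhesion protein, stood at most at 0.0310 FPKM in 2D and between 212 and 416 FPKM in 3D (fitted difference 8.37, standard error 0.19, limma's adjusted p = 1.1e-07). Cldn4, a tight junction protein and known Grhl2 target, was at most at 0.394 FPKM in 2D and between 203 and 351 FPKM in 3D. The 2 exceptions were Krt18, with a limma adjusted p of 0.0519, and Dsg1a, a desmosomal cadherin of stratified epithelium and known Grhl1 target, which stood at or below 0.0224 FPKM in every library. Krt18 and Krt8 were not low in all 2D libraries, with 2D values up to 287 and 296 FPKM.

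The opposing EMT factors showed the other direction, with 9 of 10 lower and 0 higher by limma's adjusted p and a median fitted difference of -3.26. Of all genes tested, 20.3% were lower and 21.2% higher. Prrx1, a mesenchymal homeobox factor, fell from 58.2 ± 25.4 to 0.531 ± 1.01 FPKM (SD, n = 4), a fitted difference of -5.22 (standard error 0.43, limma's adjusted p = 6.7e-05). Zeb2, a repressor of E-cadherin, was between 18.2 and 21.8 FPKM in 2D and at most 0.0300 FPKM in 3D. Snai3 was the exception, at or below 0.767 FPKM in all libraries. Under the mouse block, 0 genes of these 5 lists passed, as did 0 of all genes. The number with an unadjusted limma p below 0.05 was 7 of 19 ETS, 5 of 16 KLF, 8 of 17 epithelial, 18 of 24 target and 9 of 10 EMT genes. These counts are for either direction, beside 27.7% of all genes.

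**Figure D5:**
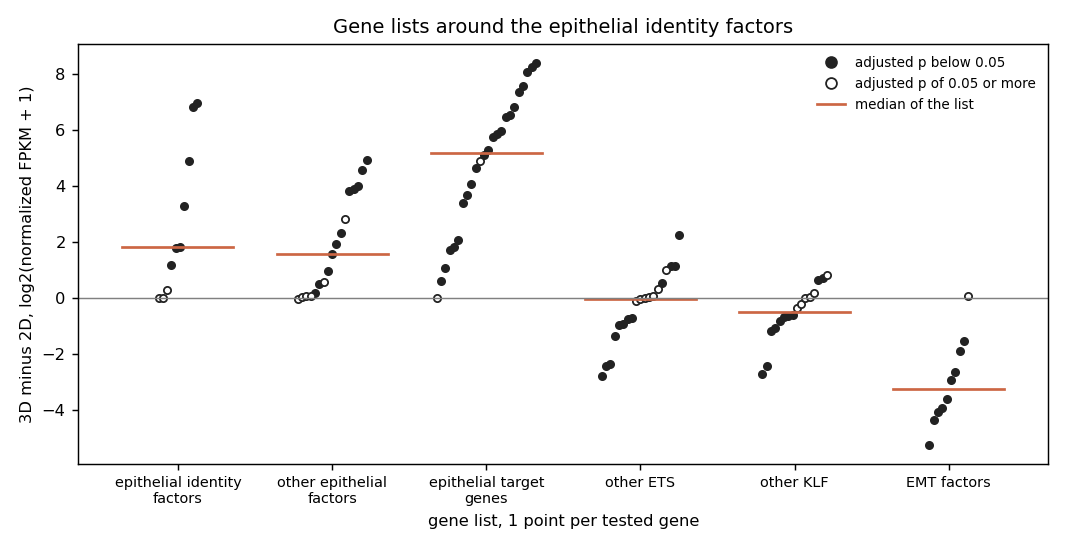
Fitted difference between 3D and 2D in log2(normalized FPKM + 1), 1 point per tested gene and 1 column per gene list, with filled points at a limma adjusted p below 0.05 and orange lines at the list medians. The medians are 1.80 for the 10 factors, 1.56 for other epithelial factors, 5.18 for epithelial target genes, -0.03 for other ETS, -0.49 for other KLF and -3.26 for EMT factors.

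The labelled cell type was checked against marker lists. Of 12 stromal genes, 10 were lower in every 3D than in every 2D library, as were 21.8% of all genes. Pdgfrb, Dcn and Lum were listed at 0 in all 3D libraries, where Thy1 was at most 0.0862 FPKM. Lum was low in 2D as well, between 0 and 0.651 FPKM. The summed stromal level still overlapped, at 2103 to 4397 FPKM in 2D and 127 to 2660 FPKM in 3D, with Ly6a (Sca-1) alone between 50.3 and 2607 FPKM in 3D. The 7 epithelial genes Cdh1, Epcam, Krt8, Krt18, Cldn3, Cldn4 and Cldn7 were all higher in every 3D library, as were 23.6% of all genes. Their sums in 3D were 1868 to 2206 FPKM. In 2D, mice 2 and 5 had sums of 2.73 and 0.187 FPKM, and mice 3 and 4 of 157 and 583 FPKM, most of it from Krt8 and Krt18. The summed level of 8 mesothelial genes in 2D was likewise higher in mice 3 and 4, at 924 and 2507 FPKM. In mice 2 and 5 it was 29.3 and 31.3 FPKM, and in 3D between 76.6 and 158 FPKM. Krt19, also in the epithelial target list, made up most of the 3D sum (72.9 to 152 FPKM). The same held in 2D mice 2 and 5, with 27.9 and 30.9 FPKM. In 3D, Msln reached 30.2 FPKM, and Upk3b, Wt1, Lrrn4, Upk1b, Gpm6a and Bnc1 at most 1.42 FPKM. Without the 2D libraries of mice 3 and 4, the same 7 factors passed with limma's adjusted p. Mouse 4 was the 2D library with the most Grhl1, Grhl3, Elf5 and Spdef, and the part of the mesothelial genes in these values was not tested.

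Of 10 genes of the epididymis and related ducts, 4 (Pax8, Pax2, Cldn10 and Aqp9) were above every 2D library in each 3D library. This held for 23.6% of all genes, and the margin of Cldn10 was small (0.0909 to 33.8 FPKM in 3D, at most 0.0885 in 2D). The sum of the 10 was at most 0.248 FPKM in 2D and between 49.7 and 74.2 FPKM in 3D. Of the others, Lcn5, Crisp4 and Lhx1 were at 0 in all 8 libraries, while Crisp1 reached 4.21 FPKM in 3D (at most 0.137 in 2D), and Defb1 and Lcn8, at 0 in 2D, reached 0.569 and 0.154 FPKM in 3D. The summed level of 5 endothelial genes was at most 6.41 FPKM in any library. The 7 leukocyte genes summed to 0.996 to 4.43 FPKM in 2D and 7.09 to 38.6 FPKM in 3D. In 3D the sum came mostly from Cd68 (6.66 to 32.3 FPKM, at most 2.86 in 2D) and Csf1r (0.409 to 8.13 FPKM in 3D and at most 1.41 in 2D). Ptprc, the general leukocyte marker, was at most 0.0788 FPKM, and Adgre1 and Cd3e were at 0 in 3D. The part of these lists in the rise of the 7 factors was not tested.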

How the data were processed

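Per the labels, total RNA of 8 cultures was made into directional libraries, 1 per file. The authors depleted ribosomal RNA, trimmed paired-end reads with FASTX_Trimmer and BBMap and mapped them with TopHat to mm10 (tool and build as in the submitters' processing notes). The deposited values are FPKM from Cufflinks, without counts, and the annotation is not given in the sources used here. Upper quartiles ranged from 10.7 to 11.4 FPKM, so the quantile normalization in the study's methods is not yet in them. Cufflinks shares reads between overlapping or similar genes, which could shift low values.

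Of 24346 genes, 5484 at 0 in every library were left out, and 18862 were quantile normalized and converted to log2(FPKM + 1). Linear models for 3D against 2D, without covariates, were fitted with limma 3.58.1 in R 4.3.3 (empirical Bayes with an intensity trend), and p-values were adjusted by Benjamini-Hochberg over all genes. Genes were called at an adjusted p below 0.05. As alternatives, the fit was repeated on the deposited values, without the trend, on genes averaging 1 FPKM or more, with 0.1 added before the logarithm, with the mouse as a block, and leaving out each library. Further ones were chosen after seeing the data: exchanging mice 4 and 5, leaving out genes under 300 nt, and leaving out the 2D libraries of mice 3 and 4.

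Samples were grouped by title. Mice 4 and 5 gave both cultures, which is where the pairing comes from. Over 12577 genes the deviations of their 2D and 3D libraries correlated at -0.05 and -0.11. The 2D library of mouse 4 correlated at 0.035 with the 3D library of mouse 5, and that of mouse 5 at 0.134 with the 3D library of mouse 4. The labelled pairs were thus no more alike than the mismatched ones. The block leaves 1 residual degree of freedom. For depth, the low values of 875 genes were used that have 1 transcript, of 3000 nt or longer, in GENCODE M21 (95.7% of symbols matched). Tested on simulated data with the same groups and 18862 genes, limma called 80.6% of 93 changes of 2 and 89.7% of 107 changes of 3 on the log2 scale, and the block called 0. Besides these, 17 unchanged genes were called. Only genes with a mean log2(FPKM + 1) of 1 or more were changed, and no mouse effect was simulated. These rates may therefore not hold for genes near 0 in a culture, or where many more genes differ.

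The 10 genes, the lists and the named-gene rule (all 10 factors, the CP2 and OVO relatives, the 2 largest called rises and falls per list, and the 3 genes most alike to Grhl2 and Ehf) were chosen with earlier results of these data known. Some genes that this rule or these lists hold are not reported here by name.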

Additional observations from a re-analysis of the deposited data

Results flagged for a closer look

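In 6 of 20 groups of 4 libraries (10 genes, 2 cultures), the gap between the highest or lowest library and the nearest of the others was larger, as a part of the group's range, than Dixon's 95% critical value. Its rate of about 1 in 20 groups by chance does not apply here, because Ovol2, Elf3 and Ehf have no range in 2D and a group with 3 values at 0 passes by construction, as Grhl2 and Spdef did in 2D. Of the 6, 3 rest on about 10 fragments or fewer: Grhl2 at 0.0121 FPKM (mouse 5, 2D), Spdef at 0.305 FPKM (mouse 4, 2D) and Elf5 at 0 FPKM (mouse 4, 3D). The 3 others are 3D libraries with more fragments, namely Grhl2 at 35.7 FPKM and Klf5 at 15.8 FPKM for mouse 1, and Ovol1 at 2.58 FPKM in mouse 7. The label of the 3D library of mouse 1 ends differently from those of the other 3D libraries, and no source used here explains it.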

How the results depend on the processing

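The 7 called factors kept their direction and their call in each setting without a block that could be fitted. Among genes averaging 1 FPKM or more, 6 were higher, because Ovol2, like Grhl3, Elf5 and Spdef, was not among the genes tested. With the mouse as a replicate block, 0 factors, 0 of all genes and 0 genes of each list were called in either direction, also with mice 4 and 5 exchanged in 3D. The adjusted p of the 7 was then between 0.111 and 0.119, or 0.103 and 0.155 after the exchange, while their fitted differences kept their sign. Grhl3 passed only without the 3D library of mouse 5.

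Near 0, the sign was unstable. Elf5 turned positive with the deposited values (0.0043) and ranged from -0.0138 to 0.0117 when 1 library was left out. Spdef turned positive with a pseudocount of 0.1 (0.19), without genes under 300 nt (0.0012) and without the 2D libraries of mice 3 and 4 (0.089), and ranged from -0.0315 to 0.0878 when 1 library was left out. None of these passed. Of 196 other counts of calls, 189 were within 1.5 times the count given above. The 7 others concern the KLF genes higher in 3D, which became 1 with the deposited values, for genes averaging 1 FPKM or more and without the 2D libraries of mice 3 and 4, and ranged from 1 to 2 when 1 library was left out; the cause was not tested. Depth limits what can be said of Elf5, Spdef and Grhl3, which held between 0 and about 30 fragments per library.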
